A study of Mus musculus with 18 samples.

Results

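Fgf21 and 8 genes of the hepatic fasting response were followed in mouse liver: Ppara, Cpt1a, Pdk4, Angptl4, Acot1, Cyp4a10, Cyp4a14 and Ehhadh. They were taken by gene symbol, and all 9 were found among the 32285 genes counted and passed the filter on low counts that left 13356 genes for testing. The peroxisome proliferator-activated receptor alpha (PPAR-alpha), encoded by Ppara, is a nuclear receptor that pairs with RXR and is activated by fatty acids reaching the liver in fasting. It switches on genes for fatty acid import into mitochondria, for peroxisomal and microsomal oxidation and for ketone body synthesis. It also induces Fgf21, a hormone released by the liver that acts on adipose tissue and brain through FGF receptors and the co-receptor beta-Klotho. Fgf21 additionally responds to amino acid shortage and cell stress through ATF4.

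Space pups were F1 offspring, 10 weeks old, that descended from GS cells (germline stem cells, that is, spermatogonial stem cells grown in culture), which came from DBA/2 mice and had spent 6 months frozen aboard the ISS, the space station in low orbit. Ground pups were offspring of the same age from GS cells kept frozen for the same 6 months on Earth. In both cases the thawed cells were transplanted into seminiferous tubules of W mice, and the recipients were mated with C57BL/6 females. According to the methods of the study, the GS cells carried an EGFP transgene, which the BDF1 controls are not said to carry. BDF1 mice, labelled as wild-type B6D2F1 like the pups, were the controls, and their age is not given. Each of the 3 groups had 6 liver libraries. The study describes offspring of both sexes and fewer wild-type mice than there are BDF1 libraries, and the labels do not say that each library is a separate mouse. Some libraries may therefore share an animal, and the p-values measure the spread between these samples.

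The replicate numbers separate the libraries in each group by sex-linked transcripts. Xist had 12218 to 21557 counts in replicates 4 to 6 and 0 to 187 in replicates 1 to 3, while 4 Y-linked genes together had 0 to 26 and 1822 to 2482 counts, respectively. Every comparison below was therefore made within replicates 1 to 3 and within replicates 4 to 6, with 3 libraries per group in each. Libraries held 15407450 to 20562351 counts. Alb took 17.6 to 24.1% of counts in pup replicates 4 to 6 but 6.72 to 8.03% in BDF1 replicates 4 to 6, and haemoglobin transcripts moved the same way. The 4 blood markers summed to 194 to 698 CPM, the counts scaled to a common library size, in Space and 100.4 to 567.9 CPM in Ground replicates 4 to 6, against 31.5 to 85.2 CPM in BDF1, and 3 of the 4 passed the test in both pup groups (Hbb-bs with log2 differences of 3.30 and 2.99). Without BDF1 replicate 5 none of the blood markers passed in either pup group. The hepatocyte markers Alb and Apoa1 were called higher and Cyp2e1 lower in the same libraries, and the Cyp2e1 call was lost in 12 of 18 fits without 1 library in Space and 4 of 18 in Ground pups. Of the Kupffer cell markers, which summed to 88.1 to 128 CPM in Space and 82.4 to 119.6 CPM in Ground against 40.6 to 88.2 CPM in BDF1 replicates 4 to 6, 1 of 6 was called higher in Space and 0 in Ground pups. With 1 library left out these counts were 0 to 2 and 0 to 3, the highest without BDF1 replicate 5, and the Space call (Clec4f) was lost in 7 of 18 fits. The 5 pancreas markers summed to 9.31 to 18.6 and 6.56 to 12.4 CPM against 33.2 to 38.9 CPM there, and the 1 that could be tested was called lower in both pup groups (−1.29 and −1.95). Of the 5, 4 had no reads in Space and BDF1 replicates 4 to 6 and 3 had none in Ground. The sum in Space and BDF1 is thus that of 1 gene and does not show a pancreas signal. Among endothelial, stellate cell and cholangiocyte markers, 5 each, Stab2 was called higher in Ground pups in all 18 fits without 1 library (1.03, adjusted p = 0.00236), Lrat lower in Space pups (−1.07) and Sox9 lower in Ground pups (−0.97), the last pair lost in 11 and 10 of 18 fits. Over all genes tested 11.9% were called in Space and 15.2% in Ground replicates 4 to 6. Counts near or below these shares, here and for Kupffer cell markers, are no result about those cell types. Cholangiocyte markers summed to 12.6 to 19.2 CPM in Ground and 22.2 to 23.6 CPM in Space against 21.99 to 24.96 CPM in BDF1 replicates 4 to 6. The 4 lymphocyte markers summed to 1.64 to 2.83 and 1.46 to 2.30 CPM in Space and Ground against 1.06 to 1.43 CPM there, and the 1 that could be tested was not called. Adipocyte markers reached at most 3.60 CPM in any library and muscle markers at most 0.12 CPM, and the part of any cell type in the results was not tested. Serpina6 exceeded 1% of counts in Space replicate 4 and Ground replicates 5 and 6. In replicates 1 to 3 the stellate cell markers summed to 52.5 to 60.7 CPM in BDF1 mice. Space libraries (80.7 to 83.2 CPM) and Ground libraries (65.0 to 80.6 CPM) lay above them. Space libraries also lay above BDF1 for hepatocyte markers (86608.5 to 87881.5 against 55638.1 to 70188 CPM). For endothelial markers they lay below (49.6 to 53.9 against 66.7 to 78.8 CPM). Ground overlapped with BDF1 in both lists, and all other lists overlapped in both pup groups. In bulk liver, fewer cells of a type and less RNA per cell cannot be told apart.

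The promoter sequences of Fgf21, Acot1 and Cpt1a are shown because these genes differed between pups and BDF1 mice in different replicate sets. They are the 250 bases before the RefSeq start site, on GRCm38.p6, the assembly also called mm10, written 5′ to 3′ on the strand of the gene. Such entries were present for 6 of the 9 genes. The Fgf21 window is chr7:45615491-45615740, minus strand. The Acot1 window is chr12:84009252-84009501 and the Cpt1a window chr19:3323051-3323300, both on the plus strand. Capitals mark matches on either strand to 4 letter patterns: the tandem element that PPAR-alpha and RXR bind, which is AGGTCA repeated after 1 base; AGGTCA alone, which the tandem element contains; TGATGNAA, a form of the C/EBP-ATF response element; and CACGTG, the E-box.
Fgf21: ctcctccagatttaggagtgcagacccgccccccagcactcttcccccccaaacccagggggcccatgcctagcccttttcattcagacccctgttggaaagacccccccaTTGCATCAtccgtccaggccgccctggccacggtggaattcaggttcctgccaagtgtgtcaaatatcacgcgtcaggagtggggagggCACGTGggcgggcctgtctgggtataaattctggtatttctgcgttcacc
Acot1: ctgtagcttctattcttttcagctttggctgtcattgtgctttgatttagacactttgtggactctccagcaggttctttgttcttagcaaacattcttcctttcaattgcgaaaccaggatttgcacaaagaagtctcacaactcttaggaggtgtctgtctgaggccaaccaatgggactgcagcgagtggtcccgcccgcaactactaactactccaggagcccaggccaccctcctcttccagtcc
Cpt1a: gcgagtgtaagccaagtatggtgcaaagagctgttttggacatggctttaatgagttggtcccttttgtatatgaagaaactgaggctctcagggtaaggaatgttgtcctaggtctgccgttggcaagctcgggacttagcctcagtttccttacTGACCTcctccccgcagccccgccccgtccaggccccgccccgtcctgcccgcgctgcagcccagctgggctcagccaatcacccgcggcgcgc

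The Fgf21 window held TGATGNAA, read on the other strand as TTGCATCA between 139 and 132 bases before the start, and CACGTG between 50 and 45 bases before it. Among 32851 promoter windows of this length, 3.45% held TGATGNAA and 6.02% held CACGTG. The Cpt1a window held AGGTCA, read on the other strand, between 94 and 89 bases before the start, as did 14% of windows. The Acot1 window and those of Ppara, Pdk4 and Ehhadh held none of the 4 patterns, and the tandem element was in none of the 6 windows and in 0.0335% of all windows. The letters say nothing of sites outside these 250 bases.

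Fgf21, the hormone of the set (ENSMUSG00000030827, chr7:45613886-45615490, minus strand), was a low transcript in every library. It stood in replicates 4 to 6 at 6.32, 6.62 and 1.62 CPM in Space pups, at 3.44, 6.32 and 3.04 CPM in Ground pups and at 0.738, 0.179 and 0.202 CPM in BDF1 mice. The pup libraries all lay above the BDF1 libraries, which held 15, 4 and 4 reads of this gene. Fgf21 was called higher in both pup groups with edgeR's quasi-likelihood test, whose log2 differences are given throughout with their SE and Benjamini-Hochberg adjusted p. The difference was 3.68 ± 0.71 in Space pups (adjusted p = 0.00427, 12.8-fold) and 3.50 ± 0.71 in Ground pups (adjusted p = 0.00426, 11.3-fold). With 1 library left out at a time the Space value ranged from 3.33 (without BDF1 replicate 5) to 4.62 (without BDF1 replicate 4) and the Ground value from 3.11 (without Ground replicate 5) to 4.44 (without BDF1 replicate 4), and the adjusted p reached 0.0305 and 0.0285, both without BDF1 replicate 5. The Space and Ground comparisons share the BDF1 libraries and are therefore not independent.

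Fgf21 in replicates 1 to 3 was at 0.941, 3.46 and 1.88 CPM in Space pups, at 4.14, 3.96 and 7.29 CPM in Ground pups and at 0.702, 3.07 and 2.19 CPM in BDF1 mice. The Space libraries covered the same range as BDF1, whereas the Ground libraries lay above both. Neither difference from BDF1 passed the test (Space 0.08 ± 0.61, adjusted p = 0.96; Ground 1.38 ± 0.58, adjusted p = 0.255), nor did the difference between Space and Ground pups (−1.30 ± 0.58, adjusted p = 0.499, 95% interval −2.53 to −0.06). The change in Space pups differed between replicates 4 to 6 and replicates 1 to 3 by 3.601 ± 0.94 (SE, adjusted p = 0.0480), a call lost when any of 11 of the 18 libraries was left out (adjusted p up to 0.129, without BDF1 replicate 5), with total counts (3.31, adjusted p = 0.0530) and without the 3 libraries with over 1% of Serpina6 (3.38, adjusted p = 0.0615). For Ground pups that difference was 2.13 ± 0.93 and did not pass (adjusted p = 0.242). BDF1 replicates 4 to 6 averaged 0.187 times the level of BDF1 replicates 1 to 3, with overlapping libraries.

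**Figure D1:**
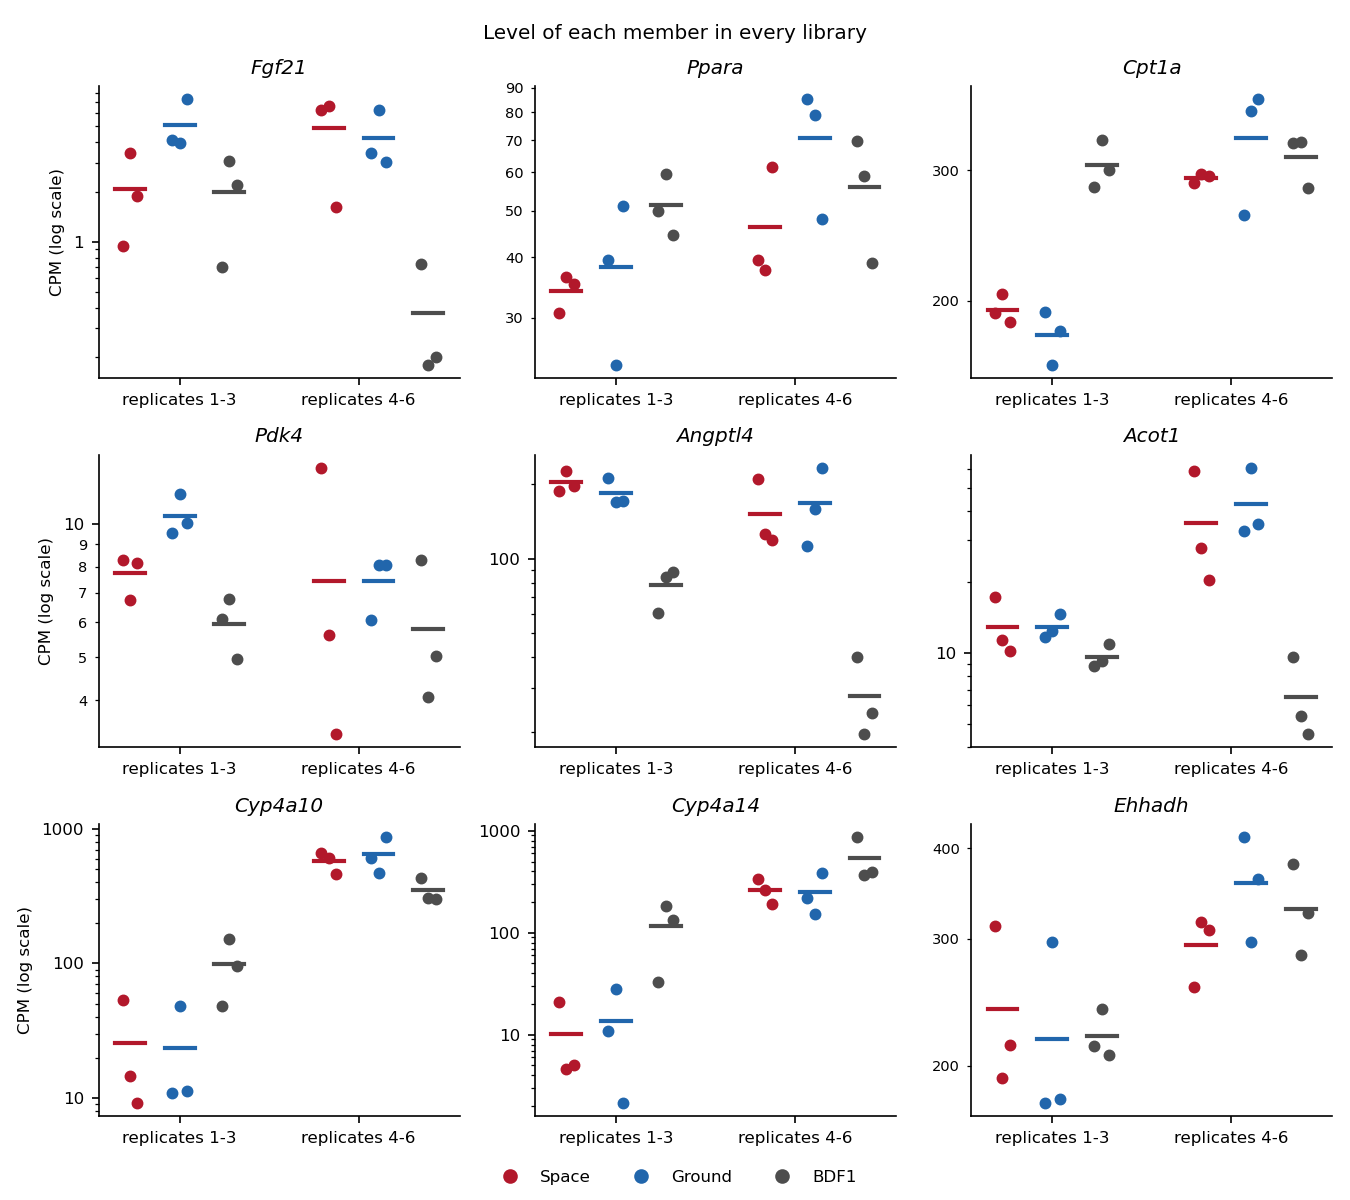
Level of each of the 9 genes in every library, in CPM on a log scale, for replicates 1 to 3 and replicates 4 to 6 of Space pups, Ground pups and BDF1 mice; points are libraries and bars are means of 3. Fgf21, Angptl4 and Acot1 lie lowest in BDF1 replicates 4 to 6, with no overlap with the pups of the same replicates, while Cyp4a10 and Cyp4a14 are higher in replicates 4 to 6 of every group.

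Ppara, the receptor (ENSMUSG00000022383, chr15:85734983-85802819, plus strand), did not pass the test in any comparison. In replicates 1 to 3 it was at 30.6, 36.4 and 35.2 CPM in Space pups, 39.5, 23.9 and 51.1 CPM in Ground pups and 49.8, 59.6 and 44.4 CPM in BDF1 mice. Space libraries lay below BDF1 libraries, with a difference of −0.59 ± 0.28 (SE, adjusted p = 0.255). The 3 groups overlapped in replicates 4 to 6 (37.7 to 61.5, 48.1 to 85.1 and 39.0 to 69.7 CPM), and the differences from BDF1 were −0.27 ± 0.27 in Space and 0.34 ± 0.27 in Ground pups, with 95% intervals of −0.85 to 0.31 and −0.24 to 0.92.

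Angptl4, a secreted inhibitor of lipoprotein lipase (ENSMUSG00000002289, chr17:33773750-33781830, minus strand), was called higher in pups in both replicate sets. In replicates 4 to 6 it was at 210.3, 126 and 119 CPM in Space, 112, 159 and 232 CPM in Ground and 40.1, 19.6 and 23.7 CPM in BDF1 mice, and in replicates 1 to 3 at 188, 225 and 197 CPM, 212, 169.9 and 171 CPM, and 60.6, 84.8 and 88.5 CPM. No pup library reached down to a BDF1 library in either set. The differences were 2.45 ± 0.30 in Space (adjusted p = 0.000242, 5.46-fold) and 2.59 ± 0.30 in Ground pups (adjusted p = 9.14e-05, 6.04-fold) for replicates 4 to 6. For replicates 1 to 3 they were 1.38 ± 0.29 (adjusted p = 0.0121) and 1.24 ± 0.28 (adjusted p = 0.0329). The Space call in replicates 1 to 3 was lost without BDF1 replicate 1 (adjusted p = 0.0576), and the Ground call was lost without any 1 of Ground replicates 1 and 3 and BDF1 replicates 1, 2 and 3 (adjusted p up to 0.133). Within BDF1 mice, replicates 4 to 6 stood at 0.356 times the mean of replicates 1 to 3, without overlap, as did 20.6% of all genes in that direction, while the pup libraries of the 2 sets overlapped.

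Acot1, a cytosolic thioesterase that splits long-chain acyl-CoA (ENSMUSG00000072949, chr12:84009490-84018371, plus strand), was called higher in pups in replicates 4 to 6. There it was at 58.9, 27.8 and 20.3 CPM in Space, 32.8, 60.5 and 35.3 CPM in Ground and 9.60, 5.42 and 4.54 CPM in BDF1 mice. The pup libraries all lay above the BDF1 libraries. The differences were 2.44 ± 0.37 in Space (SE, adjusted p = 0.00102, 5.44-fold) and 2.72 ± 0.37 in Ground pups (SE, adjusted p = 0.000358, 6.57-fold). The levels in replicates 1 to 3 were 10.2 to 17.2 CPM in Space, 11.7 to 14.6 CPM in Ground and 8.80 to 10.9 CPM in BDF1 mice, and the difference was 0.42 ± 0.36 in both pup groups (adjusted p = 0.568 and 0.614). The change differed between the replicate sets by 2.02 ± 0.51 in Space (adjusted p = 0.0411) and 2.30 ± 0.51 in Ground pups (adjusted p = 0.0238). The Space value lost its call when any of 9 libraries was left out and the Ground value when any of 6 was (adjusted p up to 0.105 and 0.0737). With total counts the Space value was 1.70 and missed the threshold (adjusted p = 0.0503). Of the 50-base stretches of Acot1 transcripts, 19.2% also occur in transcripts of other genes, 13.6% in Acot2, so its counts may include reads of relatives or lack reads shared with them.

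Cpt1a, which encodes the carnitine palmitoyltransferase that admits long-chain fatty acids to mitochondria (ENSMUSG00000024900, chr19:3322334-3385733, plus strand), moved the other way and in the other replicate set. In replicates 1 to 3 it was at 192, 204 and 187 CPM in Space, 193, 164 and 182 CPM in Ground and 285, 329 and 300.02 CPM in BDF1 mice. The 6 pup libraries all lay below the 3 BDF1 libraries. Cpt1a was called lower in Space pups by −0.65 ± 0.13 (SE, adjusted p = 0.00926, 0.638 times the BDF1 level) and in Ground pups by −0.76 ± 0.13 (SE, adjusted p = 0.00756, 0.590 times). The Space call was lost without Space replicate 3 (adjusted p = 0.0504) or BDF1 replicate 2 (adjusted p = 0.0524), and the Ground call without BDF1 replicate 2 (adjusted p = 0.0544). Cpt1a in replicates 4 to 6 was at 288 to 297 CPM in Space, 261 to 374 CPM in Ground and 284 to 327 CPM in BDF1 mice, with overlap in both comparisons and differences of −0.09 ± 0.13 and 0.09 ± 0.13. With libraries scaled by total counts it was called lower there (−0.50 and −0.42, adjusted p = 0.00724 and 0.0123), close to the shift of all genes under that scaling. The Ground change differed between the sets by 0.85 ± 0.18 (adjusted p = 0.0191), a call that was lost without BDF1 replicate 2 or 6 (adjusted p = 0.0562 and 0.0592). That value was 0.41 (adjusted p = 0.118) with libraries scaled by total counts and 0.51 (adjusted p = 0.145) without the 3 libraries with over 1% of Serpina6, and passed in neither. For Space pups that difference was 0.55 ± 0.18 (adjusted p = 0.1001).

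Pdk4, the kinase that shuts off pyruvate dehydrogenase in fasting (ENSMUSG00000019577, chr6:5483351-5496309, minus strand), passed edgeR's test over the 18 libraries in no comparison with BDF1 or between pup groups. In replicates 1 to 3 it was at 8.30, 6.73 and 8.17 CPM in Space, 9.56, 11.7 and 10.1 CPM in Ground and 6.09, 6.75 and 4.96 CPM in BDF1 mice. Ground libraries lay above those of Space and BDF1, with a difference from BDF1 of 0.81 ± 0.35 (SE, adjusted p = 0.264), which passed when only the libraries of that set were fitted (0.81, adjusted p = 0.0167) and in limma voom (0.76, adjusted p = 0.0454). In replicates 4 to 6 Space pups ranged from 3.35 to 13.4 CPM, Ground pups from 6.07 to 8.09 CPM and BDF1 mice from 4.07 to 8.27 CPM. The 95% intervals of the differences from BDF1 there were −0.42 to 1.09 and −0.40 to 1.11.

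Cyp4a10 and Cyp4a14 encode microsomal omega-hydroxylases of fatty acids and lie close together on chromosome 4 (ENSMUSG00000066072, chr4:115518264-115533649, plus strand, and ENSMUSG00000028715, chr4:115486200-115496142, minus strand). In the pups these genes differed most between the replicate sets. Cyp4a10 in replicates 4 to 6 was at 663, 603 and 461 CPM in Space, 602, 471 and 863 CPM in Ground and 434, 308 and 302 CPM in BDF1 mice, and in replicates 1 to 3 at 53.6, 14.7 and 9.19 CPM, 11.0, 48.6 and 11.3 CPM, and 48.0, 151 and 96.5 CPM. The mean of replicates 4 to 6 was 22.3, 27.3 and 3.54 times that of replicates 1 to 3, respectively, without overlap in any group. Over all genes tested, replicates 4 to 6 lay above replicates 1 to 3 in this way for 19.8% in Space, 13.6% in Ground and 20.3% in BDF1 mice.

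Cyp4a14 was at 20.8, 4.66 and 5.11 CPM in Space, 10.8, 28.2 and 2.14 CPM in Ground and 32.9, 181 and 133 CPM in BDF1 replicates 1 to 3. All pup libraries lay below those of BDF1. The difference was −3.51 ± 0.80 in Space pups (SE, adjusted p = 0.0201), a call lost without Space replicate 2 or 3 or BDF1 replicate 2 or 3 (adjusted p up to 0.1003), and the value ranged from −4.56 without Space replicate 1 to −3.03 without BDF1 replicate 2. In Ground pups it was −3.08 ± 0.78 and missed the threshold (adjusted p = 0.0539), which it passed in DESeq2 (adjusted p = 0.00571) and in 5 of 18 fits without 1 library, with values from −4.16 without Ground replicate 2 to −2.58 without Ground replicate 3. Cyp4a10 had differences of −1.93 ± 0.62 and −2.06 ± 0.62 in the same libraries (adjusted p = 0.0894 and 0.0996), with overlap. These passed in limma voom (adjusted p = 0.00234 and 0.00365) and in edgeR without a filter on low counts (adjusted p = 0.0376 and 0.0400). With 1 library left out the Space value of Cyp4a10 ranged from −3.05 to −1.48 and passed without Space replicate 1 (adjusted p = 0.0233) or Ground replicate 2 (adjusted p = 0.0373), and the Ground value ranged from −3.14 to −1.61 and passed without Ground replicate 2 (adjusted p = 0.0210). Cyp4a14 in replicates 4 to 6 was at 338, 260.1 and 190.5 CPM in Space, 219.6, 152 and 381 CPM in Ground and 864, 373 and 397 CPM in BDF1 mice. The differences there were −1.05 ± 0.72 and −1.12 ± 0.72 for Cyp4a14 and 0.73 ± 0.59 and 0.89 ± 0.59 for Cyp4a10, and none passed the test. The Cyp4a10 libraries of both pup groups lay above those of BDF1, while the Cyp4a14 libraries of Space pups lay below them and those of Ground pups overlapped with them. Without BDF1 replicate 4 the Cyp4a14 differences were −0.55 and −0.62.

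The ratio of the pair does not depend on how libraries are scaled. Per kilobase of exon, Cyp4a14 stood at 0.314, 0.258 and 0.45 times Cyp4a10 in Space replicates 1 to 3 and at 0.413, 0.35 and 0.335 times in Space replicates 4 to 6. In Ground pups the ratios were 0.793, 0.471 and 0.153, and 0.296, 0.262 and 0.358. In BDF1 mice they were 0.556, 0.977 and 1.12, and 1.62, 0.982 and 1.07. Thus 11 of 12 pup libraries lay below all BDF1 libraries, the exception being Ground replicate 1. The mean log2 ratio differed from that of BDF1 mice by −1.53 in Space and −1.56 in Ground pups, and by 0.03 between the pup groups. This ratio was chosen after its values were seen, so no test of it is given. Cyp4a10 shares 29.8% of its 50-base stretches with other genes, 24.5% with Cyp4a32, whereas Cyp4a14 shares 0.235%, so part of the Cyp4a10 count may belong to relatives. Cyp4a32 itself was at 21.8 to 70.6 CPM in all libraries.

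**Figure D2:**
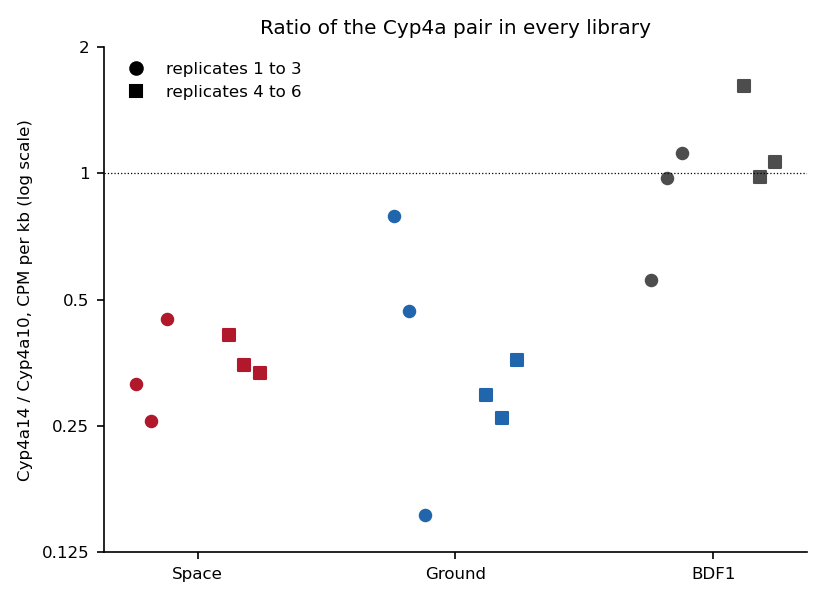
Ratio of Cyp4a14 to Cyp4a10, both in CPM per kilobase of exon, in every library on a log scale; circles are replicates 1 to 3, squares are replicates 4 to 6, and the dotted line marks equal levels. BDF1 libraries lie between 0.556 and 1.62, and pup libraries between 0.153 and 0.793.

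Ehhadh, the peroxisomal bifunctional enzyme of beta-oxidation (ENSMUSG00000022853, chr16:21761287-21787807, minus strand), did not pass the test anywhere. It ranged from 192 to 313 CPM in Space, 177 to 297 CPM in Ground and 207 to 239.5 CPM in BDF1 replicates 1 to 3, and from 257 to 316, 297 to 414 and 285 to 380.4 CPM in replicates 4 to 6. All groups overlapped, and the 4 differences from BDF1 lay between −0.17 and 0.12 with SE of 0.21.

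By these calls, 3 of the 9 genes passed in replicates 4 to 6 of Space pups, where 11.9% of all genes tested were called, and the same 3 (Fgf21, Angptl4 and Acot1) in Ground pups, where 15.2% were. All 3 were higher. The 9 genes were chosen with earlier results of these data known, so these counts beside the shares of all genes are no test of the set. Without the 3 libraries with over 1% of Serpina6 these genes were called in Space pups (Fgf21 3.45, Angptl4 2.14, Acot1 1.88), and also in Ground pups (3.20, 2.02 and 2.34, adjusted p up to 0.0441), where 1 library is left and is assumed to vary like the others. In replicates 1 to 3, 3 genes passed in Space pups (Angptl4 higher, Cpt1a and Cyp4a14 lower) against 4.64% of all genes, and 2 in Ground pups (Angptl4 higher, Cpt1a lower) against 1.92%. Averaged over both sets, Fgf21, Angptl4 and Acot1 were called higher and Cpt1a and Cyp4a14 lower in each pup group, with background shares of 12.9 and 14.6%. With group and replicate set as separate terms Cpt1a lost its call in both pup groups (adjusted p = 0.0718 and 0.107) and Fgf21 in Space pups (adjusted p = 0.0871). With group alone Angptl4 kept its call in Space pups, and Angptl4 and Acot1 in Ground pups. Without the libraries with over 1% of Serpina6, Cyp4a14 lost its call in Ground pups (adjusted p = 0.0595). For the difference between the replicate sets, Fgf21 and Acot1 were called in Space and Cpt1a and Acot1 in Ground pups, against 3.19 and 2.74% of all genes. Separation without overlap was common over all genes: 18.5% lay higher and 16.6% lower in Space replicates 1 to 3 than in BDF1, 15.9 and 15.6% in Space replicates 4 to 6, 12.2 and 11.7% in Ground replicates 1 to 3 and 14.3 and 15.8% in Ground replicates 4 to 6, and 7.66% lay lower in Space than in Ground replicates 1 to 3. The call of Fgf21 in that average was lost for Space pups without Space replicate 2 or BDF1 replicate 5 (adjusted p = 0.0549 and 0.0530), and that of Cpt1a for Ground pups without BDF1 replicate 2 (adjusted p = 0.0533). None of the 9 was called between Space and Ground pups in replicates 1 to 3, in replicates 4 to 6 or in their mean, where 0.00749, 0.0225 and 0.0225% of all genes were. Fgf21 in replicates 1 to 3 and Ppara in replicates 4 to 6 had unadjusted p of 0.0404 and 0.0407 in edgeR, and DESeq2 and limma voom also called no member there. The 95% intervals between Space and Ground pups were narrow for Cpt1a (−0.45 to 0.09 in replicates 4 to 6) and wide for Cyp4a14 (−1.44 to 1.57).

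**Figure D3:**
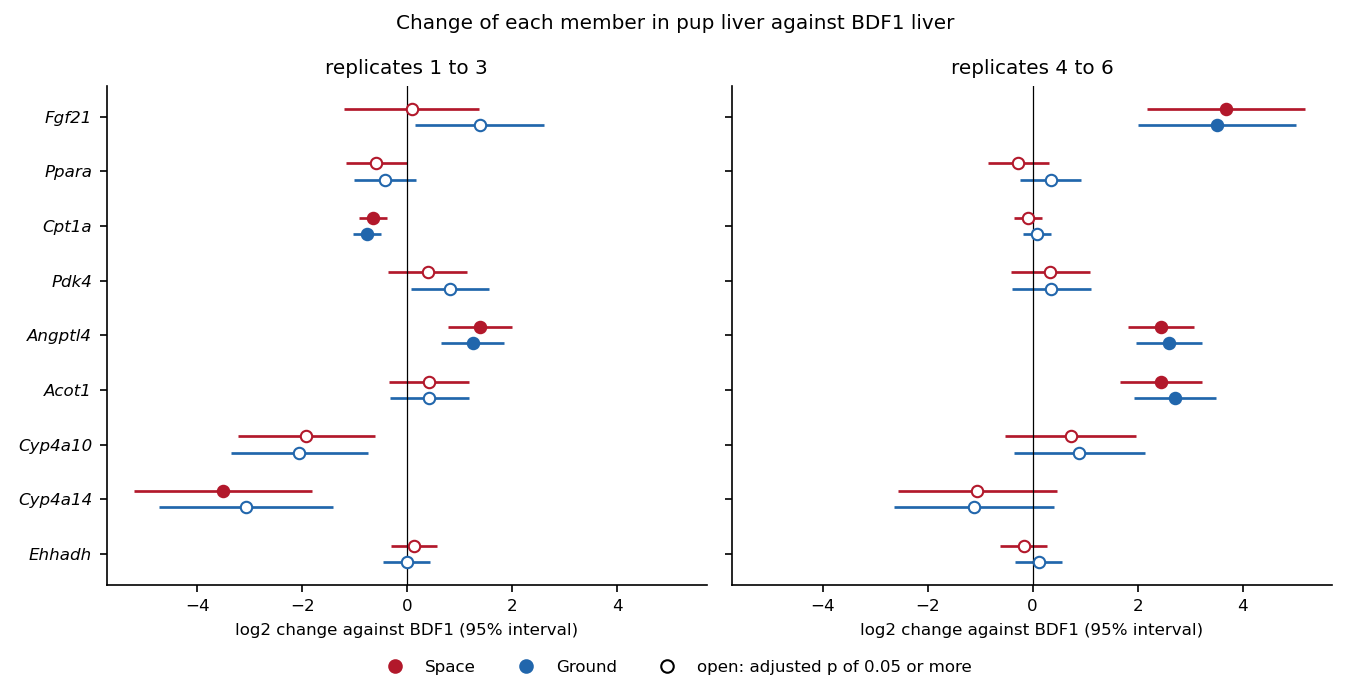
Log2 change of each gene in Space and Ground pups against BDF1 mice within replicates 1 to 3 and replicates 4 to 6, with 95% intervals; filled points passed at an adjusted p under 0.05. Fgf21, Angptl4 and Acot1 are filled to the right of 0 in replicates 4 to 6, and Cpt1a to the left of 0 in replicates 1 to 3.

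The members differed widely in level. Per kilobase of exon in BDF1 replicates 4 to 6, Cyp4a14 (209 CPM per kilobase), Cyp4a10 (165) and Ehhadh (111) were highest, Cpt1a (40.9), Ppara (14.6) and Angptl4 (7.85) followed, and Acot1 (1.66), Pdk4 (1.65) and Fgf21 (0.392) were lowest. In Ground replicates 4 to 6 Cyp4a10 led at 306, and Angptl4 at 47.4 stood beside Cpt1a at 43.5. After the mean of each group and replicate set was subtracted, log2 CPM over the 18 libraries correlated most between Cyp4a10 and Cyp4a14 (r = 0.861), Pdk4 and Acot1 (0.784) and Cyp4a10 and Ehhadh (0.781). Fgf21 correlated at 0.527 with Angptl4, 0.499 with Acot1 and 0.477 with Pdk4. These correlations describe libraries that share depth and scaling. Over all genes, those most like Fgf21 by this measure were Gm49774 (r = 0.878), Itsn1 (0.859), Mmadhc (0.794), Gm34983 (0.791) and Gm4285 (0.788). Those most like the mean of Cyp4a10 and Cyp4a14 were Gm27216 (0.862), Fmo1 (0.854), Slc16a5 (0.854), Gm19950 (0.846) and Setd4 (0.837). Each list holds the highest values among all genes tested, and whether they exceed what chance gives over 18 libraries was not tested.

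Other genes that PPAR-alpha is known to induce were called in replicates 4 to 6. This list and those below were also chosen with earlier results known, so their counts beside the shares of all genes are no test of a list. Of 20 measured, 6 were higher and 0 lower in Space pups and 9 higher and 1 lower in Ground pups, where 6.43 and 7.86% of all genes were called higher and 5.49 and 7.35% lower. Their medians were 0.46 and 0.61 against 0.01 over all genes in each. Plin2, a lipid droplet coat protein, was at 551 ± 115 CPM (SD, n = 3) in Space and 495 ± 196 CPM in Ground against 178 ± 28.5 CPM in BDF1 mice (1.63 and 1.48, adjusted p = 0.00085 and 0.000937). G0s2, an inhibitor of triglyceride lipase, rose by 2.91 and 2.17 (adjusted p = 0.00107 and 0.00375), and Creb3l3, a partner of PPAR-alpha in inducing Fgf21, by 0.77 and 0.79 (adjusted p = 0.00444 and 0.00283). Without Space replicate 4 the Space count fell to 3, and without the 3 libraries with over 1% of Serpina6, which leaves 1 Ground library assumed to vary like the others, the counts were 7 higher and 1 lower in Space and 3 higher and 1 lower in Ground pups. In replicates 1 to 3, 0 were higher, while 2 were lower in Space (Vnn1 −1.54, Ucp2 −0.99) and 1 in Ground pups (Vnn1 −1.69), and the medians were −0.11 and −0.10. Over all genes tested, 2.85 and 1.14% were called higher there and 1.8 and 0.786% lower. Without Space replicate 2 no gene of this list was called in Space pups, and without Ground replicate 3 none in Ground pups. Vnn1, a pantetheinase, was thus lower in pup replicates 1 to 3 and higher in Ground replicates 4 to 6 (1.39, adjusted p = 0.00856).

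Of 16 mitochondrial genes of beta-oxidation, 3 were called higher in Space and 4 in Ground replicates 4 to 6 and 0 lower, where 6.43 and 7.86% of all genes tested were called higher. Leaving out 1 library gave 1 to 4 higher in Space (1 in 11 of 18 fits) and 2 to 6 in Ground pups (2 without Ground replicate 5 or BDF1 replicate 5 or 6), and with libraries scaled by total counts the counts were 1 higher and 4 lower in Space and 1 higher and 7 lower in Ground pups. None passed in replicates 1 to 3 in either pup group. Acot2, a mitochondrial thioesterase, led them (1.34 and 1.38, adjusted p = 0.0042 and 0.00258), and the other called genes changed by 0.34 to 0.70. Of 16 peroxisomal genes, 1 was higher and 2 lower in Space and 4 higher and 1 lower in Ground replicates 4 to 6, against 0 higher and 7 lower and 2 higher and 10 lower with total counts. In the main fit 5.49 and 7.35% of all genes tested were called lower. The 1 of 16 called higher in Space lies near the 6.43% of all genes called higher there. Pex11a, a peroxisome division factor, was higher in both (0.80 and 0.85, adjusted p = 0.0039 and 0.0019), and Crot, the carnitine octanoyltransferase, lower in Space pups in both replicate sets (−0.82 and −0.73). The Crot call in replicates 1 to 3 was lost without any 1 of 5 libraries (Space replicates 1 to 3 and BDF1 replicates 2 and 3, adjusted p up to 0.112), and that in replicates 4 to 6 without Space replicate 4 or BDF1 replicate 4. With 1 library left out the peroxisomal counts in Space replicates 4 to 6 were 1 to 4 higher (4 without Space replicate 6) and 1 to 3 lower. In Ground replicates 4 to 6 they fell to 2 higher and 0 lower without Ground replicate 5, BDF1 replicate 5 or BDF1 replicate 6.

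Genes of fatty acid uptake and activation had 3 of 11 higher and 1 lower in replicates 4 to 6 of each pup group, against the 11.9 and 15.2% of all genes called in either direction. Cd36, the fatty acid translocase, was at 66.6 to 94.7 CPM in Space, 66.2 to 110.1 CPM in Ground and 9.32 to 24.3 CPM in BDF1 mice (2.12 and 2.22, adjusted p = 0.000721 and 0.000358). Fabp1, the liver fatty acid binding protein, and Acsl5 were also higher, and Acsl3 was lower. In replicates 1 to 3 Acsl5 (0.92, adjusted p = 0.00457) and Fabp1 (0.88, adjusted p = 0.0494, lost in 11 of 18 fits without 1 library) were higher in Space pups, and none passed in Ground pups. The Acsl3 call in Space pups was lost without BDF1 replicate 5, and 2 genes were higher in Ground pups without Ground replicate 5. Among 8 other microsomal hydroxylase and aldehyde dehydrogenase genes, Cyp4a31 was higher in replicates 4 to 6 (3.40 and 3.86, adjusted p = 0.00713 and 0.00266). Cyp4a12a, a male-predominant hydroxylase, was lower in Ground replicates 4 to 6, at 0.138 to 0.329 CPM against 2.33 to 10.4 CPM in BDF1 mice (adjusted p = 0.00148), and was at 406 to 777 CPM in replicates 1 to 3 of all groups.

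Of 19 receptors and partners, Lpin1, a coactivator of PPAR-alpha and phosphatidate phosphatase, changed most. It was at 337 to 554 CPM in Space and 181 to 224 CPM in Ground against 22.3 to 29.7 CPM in BDF1 replicates 1 to 3 (4.09 and 2.96, adjusted p = 1.21e-05 and 0.000614), and in replicates 4 to 6 it passed in Ground pups (0.97, adjusted p = 0.0491), a call lost in 16 of 18 fits without 1 library, while the difference between Space and Ground there was not called. Ppard was lower (−1.41) and Pdk1, a pyruvate dehydrogenase kinase like Pdk4 rather than a receptor, higher (0.92) in Space replicates 1 to 3. These calls were lost without any 1 of 5 and 6 libraries. Of 7 measured genes for FGF21 reception and processing, Furin, a proprotein convertase, rose in replicates 4 to 6 (0.85 and 1.03, adjusted p = 0.00191 and 0.000412). Klb, which encodes beta-Klotho, was lower in Ground replicates 1 to 3 (−0.95, adjusted p = 0.0232), but not without Ground replicate 1 or BDF1 replicate 2 or 3 (adjusted p up to 0.118). Of 14 ATF4 and amino acid response genes, 2 were higher in Space and 3 in Ground replicates 1 to 3, where Nupr1, a stress-induced chromatin protein, rose by 3.00 and 3.95 (adjusted p = 0.00457 and 0.00242), against 4.64 and 1.92% of all genes called. The counts fell to 1 in Space without BDF1 replicate 1 and to 1 in Ground without Ground replicate 1. In replicates 4 to 6 none was called in Space, and Nupr1 (2.48) was higher and Vldlr (−1.58) and Trib3 (−1.20) lower in Ground pups, against 11.9 and 15.2% of all genes. With 1 library left out the Space count there reached 3, and no Ground gene was lower without Ground replicate 5 or 6 or BDF1 replicate 4 or 5. The Nupr1 call was also lost without BDF1 replicate 5.

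Genes that follow feeding rather than fasting were called in replicates 1 to 3. The labels give neither the feeding state nor the hour at which livers were taken. Of 16 feeding and lipogenic genes, 12 were higher in Space and 4 in Ground replicates 1 to 3, 0 were lower, and the medians were 1.73 and 1.01. The counts fell to 6 and 0 without BDF1 replicate 2, and were 13 and 7 without the 3 libraries with over 1% of Serpina6. Scd1, the stearoyl-CoA desaturase, was at 8535 to 13023 CPM in Space against 432 to 521 CPM in BDF1 mice (4.47, adjusted p = 0.0124), and Fasn, the fatty acid synthase, at 766 to 1798 against 189 to 258 CPM (2.52, adjusted p = 0.00713). In replicates 4 to 6, 4 were higher and 2 lower in Space and 3 higher and 2 lower in Ground pups, with Txnip higher (adjusted p = 0.00111 and 0.00162) and Srebf1, the lipogenic transcription factor, lower (−1.37 and −1.87), against 11.9 and 15.2% of all genes called. Without BDF1 replicate 4, 1 was higher in each pup group, and without BDF1 replicate 5, 1 was lower in Space pups. Of 16 gluconeogenic and fasting genes, 3 were higher and 1 lower in Space and 2 higher in Ground replicates 1 to 3, and 1 higher and 2 lower in Space and 3 higher and 4 lower in Ground replicates 4 to 6, where total counts gave 1 higher and 9 lower and 1 higher and 8 lower. Over all genes 4.64 and 1.92% were called in replicates 1 to 3. The counts higher there were 2 in Space and 0 in Ground pups without BDF1 replicate 2, and 1 in Ground pups without Ground replicate 1, and the gene that was lower in Space, Irs2, lost its call in 13 of 18 fits without 1 library. In Ground replicates 4 to 6, 1 was lower without Ground replicate 4 or BDF1 replicate 6. Foxo3, a transcription factor that insulin holds in check, was higher in replicates 1 to 3 (0.81 and 0.65, the latter lost without BDF1 replicate 2) and lower in replicates 4 to 6 (−0.55 and −0.50).

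Of 18 clock genes, 8 were higher in Space and 4 in Ground replicates 1 to 3, 0 were lower, and Per3 was among them in both (2.46 and 1.96, adjusted p = 0.0019 and 0.019). Over all genes 4.64 and 1.92% were called there. The Space count was 3 without Space replicate 3, and the Ground count was 2 without Ground replicate 1. In replicates 4 to 6, 2 were higher and 1 lower in Space and 2 higher and 2 lower in Ground pups (1 higher and 6 lower and 0 higher and 6 lower with total counts), with Per3 lower in both (−1.11 and −1.01). These shares, 3 and 4 of 18, lie near the 11.9 and 15.2% of all genes called in replicates 4 to 6 and are no result about clock genes. Without BDF1 replicate 5 the Per3 calls were lost in both pup groups. The part of collection time or feeding in the member differences was not tested.

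**Figure D4:**
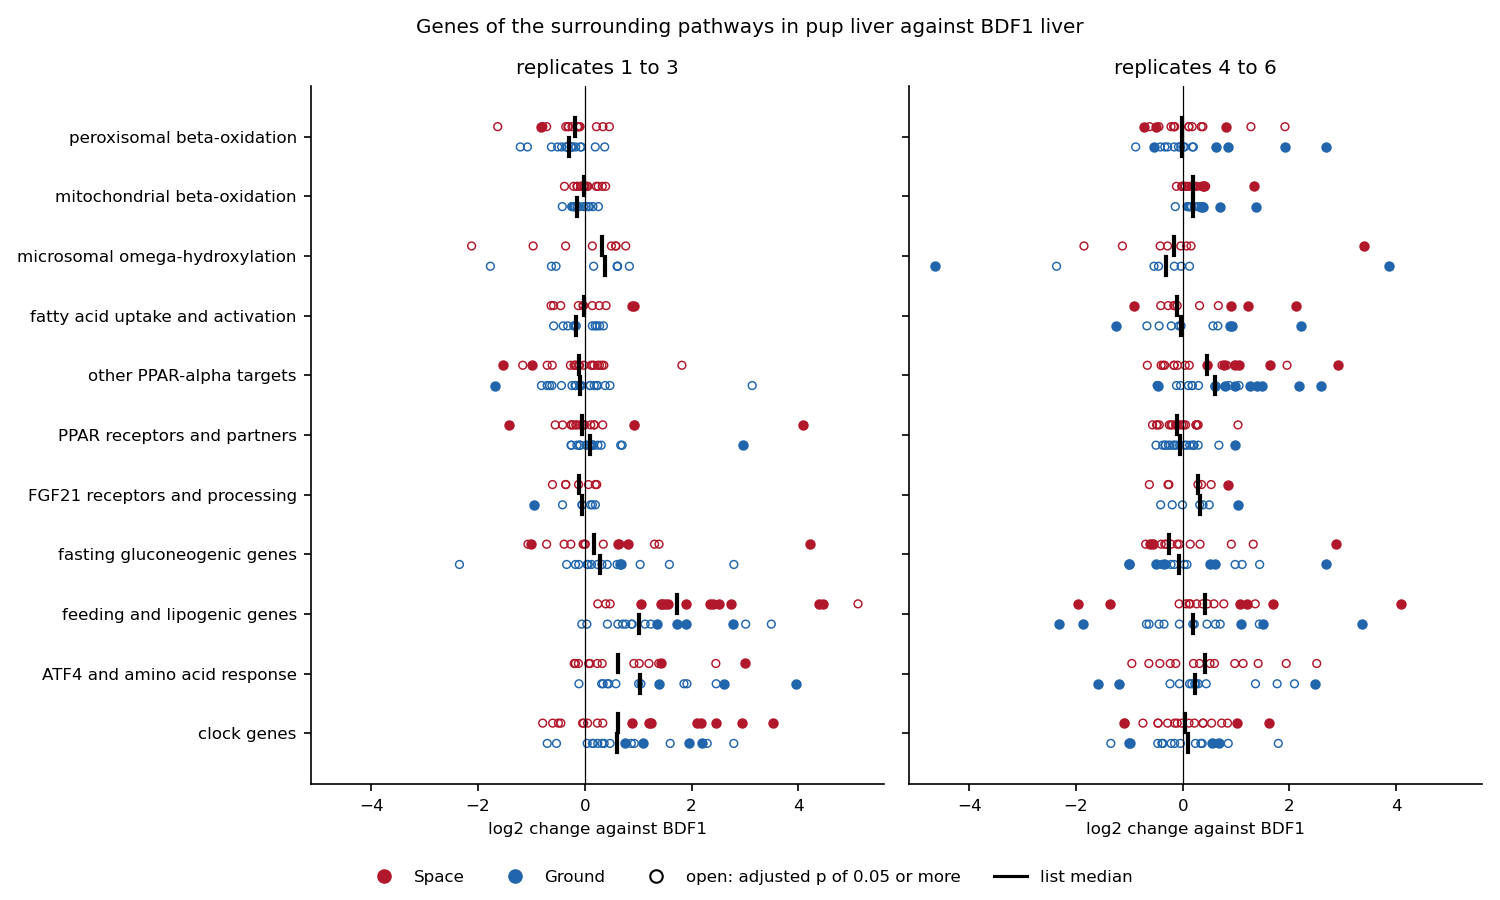
Log2 change against BDF1 mice of every measured gene in 11 lists around the members, for Space and Ground pups, in replicates 1 to 3 and replicates 4 to 6; filled points passed at an adjusted p under 0.05 and bars are list medians. Feeding and lipogenic genes have medians of 1.73 and 1.01 in replicates 1 to 3, and other PPAR-alpha targets have medians of 0.46 and 0.61 in replicates 4 to 6.

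The scaling of libraries bears on replicates 4 to 6. With total counts in place of trimmed mean scaling, the median of all genes moved to −0.39 in Space and −0.46 in Ground pups against BDF1. The genes called became 337 higher and 4641 lower in Space pups, from 859 higher and 733 lower, and 402 higher and 5734 lower in Ground pups, from 1050 higher and 981 lower. Fgf21 (3.26 and 3.02), Angptl4 (2.02 and 2.07) and Acot1 (1.99 and 2.22) kept their calls, and Cpt1a was called lower (−0.50 and −0.42), close to the shift of all genes. Under that scaling 5 of the 20 other PPAR-alpha targets were called higher in each pup group and 4 and 2 lower. Plin2, G0s2, Cd36, Acot2, Cyp4a31 and Furin kept their calls, whereas Pex11a did not.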

How the data were processed

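According to the labels, liver RNA from 18 mouse libraries was sequenced as paired-end reads from a stranded mRNA kit. The methods of the study instead name single reads and another cutadapt version for its RNA sequencing. The sources used here do not say which applies to these libraries. The authors deposited raw counts per gene; the submitters' processing notes name bcl2fastq 2.20, cutadapt 4.6, HISAT2 2.2.1, HTSeq 2.0.2 and the mm10 genome, and the strand setting of counting is not given in the sources used here. Library totals were 15407450 to 20562351 counts, so that 3 counts correspond to 0.134 to 0.234 CPM. Groups came from the sample titles.

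Counts were tested with edgeR 4.0.16 (R 4.3.3): filterByExpr kept 13356 of 32285 genes, libraries were scaled by trimmed mean of M values (TMM), a mean was fitted for each group in replicates 1 to 3 and in replicates 4 to 6 over all 18 libraries (12 residual degrees of freedom), and quasi-likelihood F-tests were adjusted by the Benjamini-Hochberg method over all genes tested, with a threshold of 0.05. CPM values are TMM-scaled, and a prior count of 2 entered log2 CPM. Gene positions and exon lengths were from GENCODE M21 and promoter sequences from RefSeq. Alternatives were DESeq2 1.42.0, limma 3.58.1 voom, other scalings, filters and models, a replicate block and leaving out each library. The scripts were tested on simulated data.

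The 9 genes and the gene lists were chosen with earlier results of these data known. Beyond the 9 genes, the text names from each list genes called within a replicate set or among the 4 with the smallest p, and the 5 genes most correlated with Fgf21 and with the Cyp4a pair. No 2 libraries held identical counts. Proteins were not analysed here, and results for 1 gene list are not reported here.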

Additional observations from a re-analysis of the deposited data

Results flagged for a closer look

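In a set of 6 libraries per group, the highest or lowest library was compared with the rest. Ppara in Space replicate 6 (61.5 CPM) was separated from the nearest other Space library by 0.712 of the range of its group, and Acot1 in Space replicate 4 (58.9 CPM) by 0.638, both above the 95% critical value of Dixon's test. These were 2 of 27 sets examined, where 1 in 20 would give 1.35 if each set came from 1 population. Each set pools replicates 1 to 3 with replicates 4 to 6. In Space pups these did not overlap for Ppara or Acot1, with ratios of their means of 1.36 and 2.76. The critical value and the number expected therefore do not strictly apply.

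The change against BDF1 mice differed between replicates 4 to 6 and replicates 1 to 3 for 3 genes, by edgeR's test of that difference. For Fgf21 in Space pups the difference was 3.601 (adjusted p = 0.0480), for Acot1 2.02 in Space (adjusted p = 0.0411) and 2.30 in Ground pups (adjusted p = 0.0238), and for Cpt1a in Ground pups 0.85 (adjusted p = 0.0191). Of these only the Acot1 value in Ground pups kept its call with libraries scaled by total counts; Fgf21 and Acot1 in Space pups had adjusted p of 0.0530 and 0.0503 and Cpt1a a value of 0.41 (adjusted p = 0.118). Without the 3 libraries with over 1% of Serpina6 Fgf21 (adjusted p = 0.0615) and Cpt1a (0.51, adjusted p = 0.145) were not called either, and each of the 4 calls was lost in some fits without 1 library. The replicate sets also differ in Xist and Y-linked counts, and whatever else separates them cannot be told apart from these.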

How the results depend on the processing

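Over the alternatives that leave out no single library, 638 of 686 values for the 9 genes kept their direction and their side of the threshold, 20 lost a call, 11 gained one and 17 changed sign. Fgf21, Angptl4 and Acot1 in replicates 4 to 6 kept their calls in both pup groups under the alternatives that give a value for that set, 1 of which leaves a single Ground library there, and in every fit that left out 1 library. Group alone and group plus replicate set give no value for a set. The cause of the other changes was not tested.

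Total counts in place of TMM gave, for Space against BDF1, 4978 genes called in replicates 4 to 6 and 4508 in the mean of both sets, and for Ground 137 in replicates 1 to 3, 6136 in replicates 4 to 6, 4639 in the mean and 1501 for the difference between sets; Space against Ground had 0 in replicates 1 to 3. Members called for the difference were 0 in Space and 1 in Ground. Signs changed for Fgf21 (-0.045) and Ehhadh (-0.0067) in Space replicates 1 to 3, Pdk4 in Space replicates 4 to 6 (-0.11), Ppara (-0.11), Cpt1a (-0.42), Pdk4 (-0.14) and Ehhadh (-0.33) in Ground replicates 4 to 6, and Pdk4 between Space and Ground replicates 4 to 6 (0.028).

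DESeq2 called 1002 genes in Space and 619 in Ground replicates 1 to 3, 849 and 782 for the difference between sets, and between Space and Ground 68, 139, 290 and 30 for replicates 1 to 3, 4 to 6, their mean and their difference. Against that last count edgeR called 0, with 1038 at an unadjusted p under 0.05. Voom called 2369, 2484, 3244 and 1515 genes in Space (replicates 1 to 3, 4 to 6, mean, difference; 5 members for the difference), 1097 in Ground replicates 1 to 3 (5 members) and 739 for the Ground difference (4 members), and 483, 0, 557 and 12 between Space and Ground. It changed the sign of Fgf21 in Space replicates 1 to 3 (-0.028), Pdk4 in Space replicates 4 to 6 (-0.042), and, between Space and Ground, Acot1 (0.0057) and Cyp4a14 (0.066) in replicates 1 to 3 and Cyp4a14 (-0.11) in replicates 4 to 6.

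With no filter, 4 members were called in Ground replicates 1 to 3 and 4 for the Ground difference, and 7, 14, 28 and 8 genes between Space and Ground in the same order; a minimum mean of 1 CPM and removal of the 10 most abundant genes gave 6 and 10 for their mean. With only the libraries of a set, Space had 1090 and 570 genes, Ground 560 and 895, and Space against Ground 14 and 0, in replicates 1 to 3 and 4 to 6. Group alone gave 488 genes and 1 member in Space, 489 and 2 in Ground and 0 between them; with the set as an added term, 3 members in Space and 0 genes between Space and Ground. Without the 3 libraries with over 1% of Serpina6, an alternative chosen after seeing the data, Space had 1207 genes in replicates 1 to 3 and 775 for the difference, Ground 709 and 1067 in replicates 1 to 3 and 4 to 6 and 1 member for the difference, and Space against Ground 28, 1 and 21 (mean); signs changed for Pdk4 in Space (-0.38) and Cpt1a in Ground replicates 4 to 6 (-0.25), and between Space and Ground for Cpt1a (0.17) and Angptl4 (0.12).

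Same-numbered libraries of different groups did not deviate together (correlations from -0.601 to 0.251, median -0.0401, over 0.1 in 3 of 18 pairs), so the numbers do not pair the samples. With a replicate block, Space had 354, 939 and 230 genes (replicates 1 to 3, 4 to 6, difference; 1 member for the difference), Ground 92 in replicates 1 to 3 (1 member) and 145 for the difference (1 member), and Space against Ground 0 and 0.

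Leaving out 1 library at a time gave, in the order replicates 1 to 3, 4 to 6, mean and difference, 201 to 769, 636 to 1940, 1042 to 2038 and 221 to 599 genes in Space, 35 to 384, 1114 to 2386, 1361 to 2262 and 132 to 753 in Ground, and 0 to 76, 0 to 75, 0 to 536 and 0 to 21 between Space and Ground. Members called ranged from 1 to 4, 3 to 3, 4 to 5 and 0 to 3 in Space and 0 to 4, 3 to 3, 4 to 6 and 0 to 3 in Ground. Within a replicate set, differences that changed sign when 1 library was left out ranged from -0.48 to 0.54 (Fgf21) and -0.12 to 0.25 (Ehhadh) in Space replicates 1 to 3, -0.37 to 0.70 (Pdk4) in Space replicates 4 to 6, -0.30 to 0.12 (Ehhadh) in Ground replicates 1 to 3, and -0.0065 to 0.23 (Cpt1a) and -0.0039 to 0.23 (Ehhadh) in Ground replicates 4 to 6. Between Space and Ground they ranged from -0.41 to 0.11 (Ppara), -0.27 to 0.15 (Acot1), -0.99 to 1.21 (Cyp4a10), -1.49 to 0.65 (Cyp4a14) and -0.10 to 0.42 (Ehhadh) in replicates 1 to 3, and from -0.13 to 0.60 (Fgf21), -0.73 to 0.34 (Pdk4), -0.45 to 0.16 (Angptl4), -0.83 to 0.060 (Acot1), -0.35 to 0.101 (Cyp4a10) and -0.19 to 0.50 (Cyp4a14) in replicates 4 to 6; none of these was called. Fgf21 in BDF1 replicates 5 and 6 rests on 4 reads each, which limits the precision of its fold.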
